A study of Mus musculus with 9 samples.

Results

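The cytochrome P450 genes described here are the gene symbols made of Cyp, digits, a letter and digits, with Cyp27b1 and Cyp24a1 left out and with at least 90 counts summed over 9 mouse kidney libraries. Of 80 symbols of that form, 44 reached the minimum and 36 did not. The nearest genes below it were Cyp2d13 with 87.4 summed counts, Cyp2d10 with 86.6 and Cyp21a1 with 71.0. The nearest above it were Cyp2b23 with 92.0, Cyp17a1 with 112.0 and Cyp2j8 with 132.9. All 44 members also passed the filter on low counts that was applied to every gene. P450 symbols of another form, such as Cyp51 and Cyp4a12a, were not members.

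P450 enzymes are heme proteins that insert oxygen into lipids, steroids, vitamins and foreign chemicals. Most sit in the membrane of the endoplasmic reticulum, where an oxidoreductase hands them electrons. In the kidney many are made in the proximal tubule, where the Cyp2c and Cyp2j subfamilies turn arachidonic acid into epoxides and family 4 hydroxylates the ends of fatty acids and eicosanoids. These products are known for their action on renal vessels and salt transport, and many mouse P450 genes are expressed at different levels in the 2 sexes.

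The libraries came from whole kidneys of 9-week-old 129X1/SvJ mice. Untreated wild-type animals (WT), Col4a3 -/- animals given PBS (KO_PBS) and Col4a3 -/- animals given antimiR-21 (KO_antimiR21), an inhibitor of the microRNA miR-21, gave 3 libraries each. Col4a3 encodes a chain of basement membrane collagen, and its loss in mice models Alport kidney disease. Because WT mice were untreated per the labels, genotype and injection cannot be told apart in comparisons with WT. The labels name no animals. Each deposited library name opens with its own number, whose meaning is not given in the sources used here. WT held libraries of both sexes, described next, so at least 2 WT mice were used, but whether the male libraries of each knockout group are from different mice is not given, and p-values cover only the spread among these libraries, which may be in part technical.

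Depth was even, at 26448275 to 31786624 expected counts per library. The targeted Col4a3 was at 257 to 371 CPM in WT (CPM is the count divided by the scaled total of its library, the usual depth-adjusted unit), at 44.3 to 94.3 in KO_PBS and at 70.6 to 138 in KO_antimiR21. By the summed CPM of 4 Y-linked genes, WT 1 and WT 3 were female (0.928 and 1.49) and the other 7 libraries male (102 to 118). The deposited names mark WT 1 and WT 3 as F and WT 2 as M, the same sexes. They give no sex for the knockout libraries. Sex therefore differed between WT and both knockout groups, and for the members called in KO_PBS against WT the value among the 7 male libraries is given too. A library code in the deposited names was L4 for WT and for KO_PBS 1 and 2, and L5 for KO_PBS 3 and all KO_antimiR21 libraries; its meaning is not given in the sources used here. Markers matched the labelled tissue: the proximal tubule transporter Slc34a1 stood at 493 to 3970 CPM.

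Per transcript length, the P450 messages of WT kidney were dominated by a few genes. WT mean CPM per kilobase was 550 for Cyp4b1, a fatty acid and xenobiotic hydroxylase, 443 for Cyp2j5, the main epoxygenase of mouse kidney, and 389 for Cyp2e1, which oxidises ethanol and small solvents. Cyp2a4 (254), Cyp4a10 (231), Cyp2a5 (223), Cyp4a14 (174) and Cyp2d26 (142) followed. These means hide wide spreads between the 3 WT libraries: Cyp4b1 was at 366, 2470 and 275 CPM and Cyp2e1 at 150, 1760 and 232 CPM in WT 1, 2 and 3. Neighbours in this order do not differ beyond that spread. WT 2, the male library, held the high value of both.

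Cyp2a4 and Cyp2a5, a steroid hydroxylase and a coumarin hydroxylase, show why single members of these families are uncertain. Their 1482 coding bases are 98.4% identical, with 23 differing bases and a longest identical run of 216 bases in the GENCODE vM21 transcripts. RSEM divides reads that fit both. Coding bases 580 to 669 of each are given, 5′ to 3′, with the 5 bases that differ between them in capitals.
Cyp2a4: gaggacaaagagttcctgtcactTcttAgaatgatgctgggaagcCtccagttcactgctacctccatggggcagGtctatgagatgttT
Cyp2a5: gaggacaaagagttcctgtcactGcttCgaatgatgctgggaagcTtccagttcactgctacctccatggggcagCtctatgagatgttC
Of the 43 members matched to a transcript, 9 shared at least 20% of their 50-base windows with another P450 gene, counting both partners of a pair. The shares were 46.8% for Cyp4a32, 40.8% for Cyp2a5, 38.0% for Cyp2a4, 36.5% for Cyp2d11, 30.5% for Cyp4a10, 28.3% for Cyp2d9, 26.5% for Cyp4f16, 21.7% for Cyp4f37 and 20.1% for Cyp4a31. Cyp2c44 was not matched.

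Together the 44 genes took 0.396%, 0.842% and 0.39% of the expected counts in WT 1, 2 and 3, a mean of 0.543% ± 0.259 (SD, n = 3). They took 0.159%, 0.342% and 0.434% in KO_PBS 1, 2 and 3 (mean 0.312% ± 0.14, n = 3). In KO_antimiR21 1, 2 and 3 they took 0.46%, 0.359% and 0.726% (mean 0.515% ± 0.189, n = 3). The groups overlapped. Male WT 2 held the highest share of the 9 libraries, KO_antimiR21 3 the next and KO_PBS 1 the lowest. The female WT libraries lay inside the range of the male knockout libraries.

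**Figure D1:**
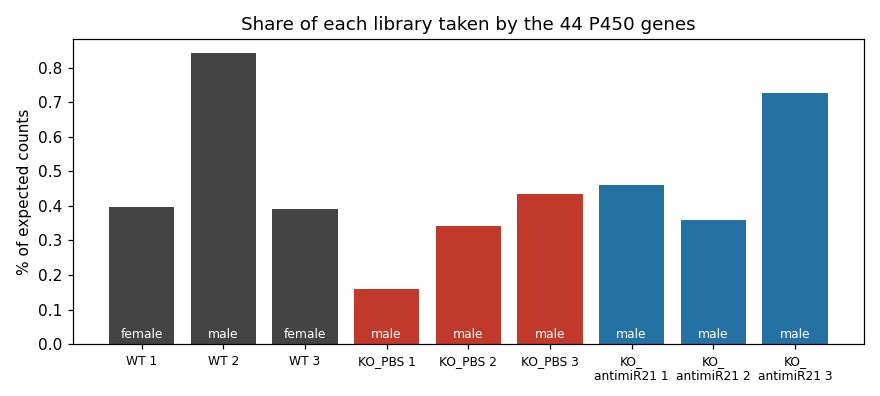
Bars give the percentage of each library's expected counts that fell on the 44 P450 genes, with the sex called from Y-linked genes written in each bar. Male WT 2 reached 0.842% and KO_PBS 1 was lowest at 0.159%, with the 2 female WT libraries at 0.396% and 0.39%.

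The first comparison asked which P450 messages differed between KO_PBS and WT kidneys. Of the 44 members, 11 were lower and 5 were higher in KO_PBS at an edgeR adjusted p under 0.05. The lower ones were the epoxygenases Cyp2c44, Cyp2j7 and Cyp2j11, the family 4 hydroxylases Cyp4a10, Cyp4a14 and Cyp4f14, and Cyp1a1, Cyp2b23, Cyp2d12, Cyp2d26 and Cyp2u1. The higher ones were Cyp1b1, Cyp2s1, Cyp4f16, Cyp4f18 and Cyp4v3. Lower calls made up 25% of the members against 9.85% of the 17315 genes tested, and higher calls 11.4% against 14.6%. The median log2 fold change of the members was -0.99, with 35 below and 9 above 0, and that of all tested genes was -0.03. With library totals alone, the median of all genes was 0.25 and that of the members -0.73, with 14 members above 0. That scaling called 6 members higher and 11 lower, and 3753 genes higher and 904 lower, where the main scaling called 2521 and 1705 genes.

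Separation of the libraries ran the same way. All 3 KO_PBS libraries lay below all 3 WT libraries for 14 members, against 20.5% of all genes, and above them for 5, against 22.6% of all genes. Without the female libraries the comparison has 1 WT library against 3. In that fit of the 7 male libraries, the lone WT library is assumed to vary like the others, so only effect sizes are read from it. In the 9-library fit, at an unadjusted p under 0.05, edgeR found 18 members lower and 6 higher, against 2984 and 3414 of 17315 genes. The median of the members was -0.68 among male libraries, with 31 below 0. With sex as a term beside group, edgeR called 0 members, a count not compared with the calls over all genes in that fit. At an unadjusted p under 0.05 that fit had 14 lower and 5 higher, against 1841 and 2548 of 17315 genes.

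The calls also depended on single libraries, though these counts were not compared with the calls over all genes in the same fits. Without KO_PBS 1, edgeR called 6 members, without KO_PBS 2 it called 8 and without WT 3 it called 9. Leaving out any one of the 9 libraries kept the calls of Cyp1b1, Cyp4f18, Cyp4v3, Cyp1a1 and Cyp2u1.

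**Figure D2:**
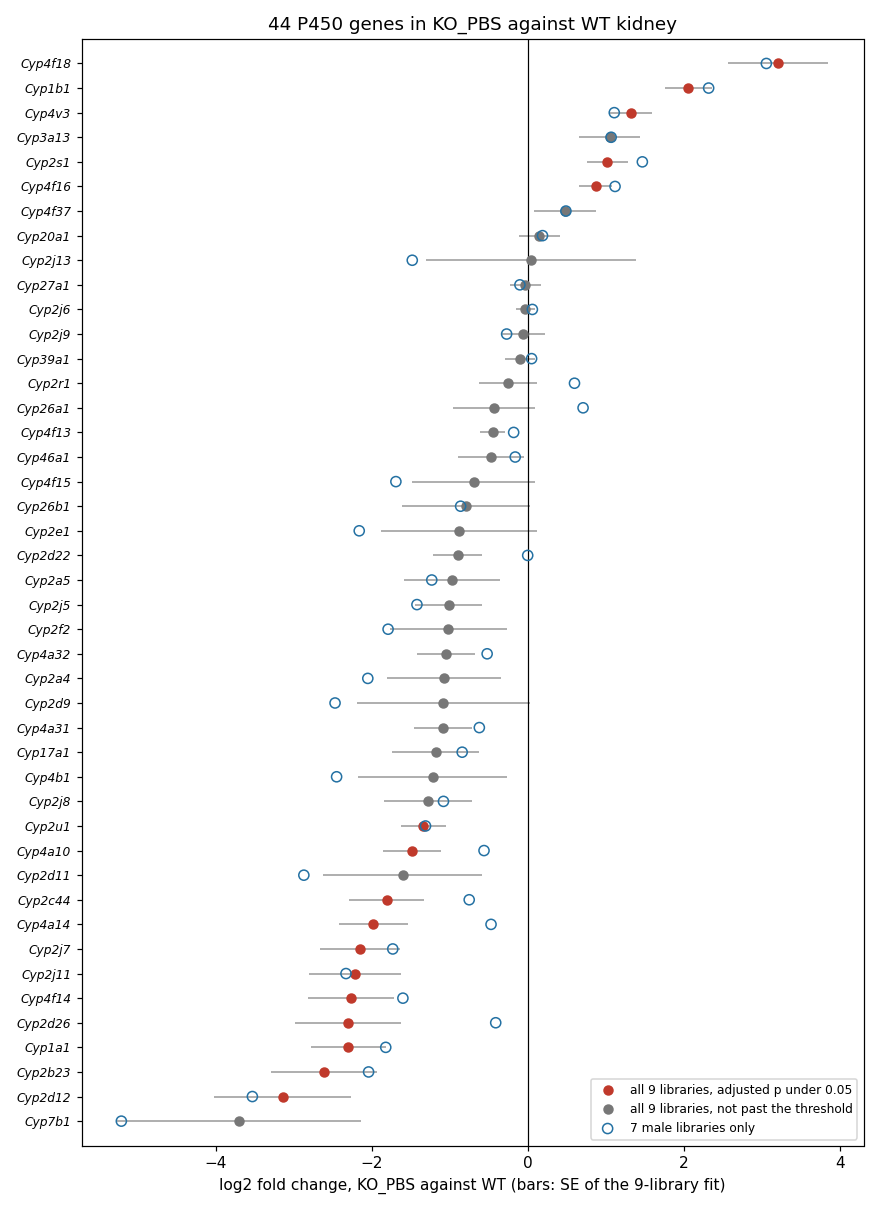
Filled points give the log2 fold change of each of the 44 P450 genes in KO_PBS against WT with its standard error as a bar, red where the edgeR adjusted p was under 0.05, and open circles give the value among the 7 male libraries. Most points lie left of 0. For Cyp4a14 (-1.98 and -0.47) and Cyp2d26 (-2.30 and -0.41) the male value lies nearer 0, whereas for Cyp7b1 (-3.70 and -5.21) it lies farther.

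Of the 8 epoxygenase-type members, 3 were lower, 0 were higher and the median log2 fold change was -1.15. Cyp2j11 was at 190, 173 and 114 CPM in WT 1, 2 and 3 and at 10.7, 44.8 and 46.6 CPM in KO_PBS 1, 2 and 3. Every KO_PBS library lay below every WT library, female or male. Its log2 fold change of -2.22 ± 0.59 (edgeR adjusted p = 0.0257) compared with -2.33 among male libraries.

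Cyp2c44, an epoxygenase of renal vessels and tubules, was at 105, 39.7 and 101 CPM in WT and at 13.2, 23.2 and 33.4 CPM in KO_PBS. The groups did not overlap, but the male WT library was far nearer to KO_PBS than the female ones were. Its log2 fold change of -1.81 ± 0.48 (edgeR adjusted p = 0.0251) compared with -0.75 among male libraries. Cyp2j7, a low-level relative, went from 2.57, 2.25 and 3.98 CPM in WT to 0.658, 0.701 and 0.621 CPM in KO_PBS. Its 3 KO_PBS values were nearly equal and below all of WT (-2.15 ± 0.51, edgeR adjusted p = 0.0176, and -1.73 among male libraries).

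Cyp2j5 carried most of the Cyp2j message and did not pass the threshold. It was at 1100, 1400 and 630 CPM in WT and at 266, 608 and 681 CPM in KO_PBS, with WT 3 inside the KO_PBS range (-1.01 ± 0.43, edgeR adjusted p = 0.121). Cyp2j6 and Cyp2j9 were at -0.03 ± 0.12 and -0.06 ± 0.28 (edgeR adjusted p = 0.904 and 0.905), and Cyp2j8 was at -1.28 ± 0.56 (edgeR adjusted p = 0.131). In the RefSeq gene order, Cyp2j13, Cyp2j11, Cyp2j8, Cyp2j6, Cyp2j9 and Cyp2j5 stand in that order within a cluster. Genes that are not members may lie between them, and Cyp2j7 was not placed there. The 6 members of the cluster spanned -2.22 to 0.04.

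The 12 members of family 4 split, with 3 lower and 3 higher and a median of -0.87. On the lower side, Cyp4a14, a fatty acid hydroxylase under control of the lipid receptor PPAR alpha, was at 617, 154 and 532 CPM in WT and at 81.3, 122 and 126 CPM in KO_PBS. The male WT library was the lowest of WT but still above every KO_PBS library. Its log2 fold change of -1.98 ± 0.44 (edgeR adjusted p = 0.0136) compared with -0.47 among male libraries. Its neighbour Cyp4a10 was at 557, 262 and 641 CPM in WT and at 116, 197 and 210 CPM in KO_PBS, again with male WT lowest of WT and KO_PBS 1 lowest of all (-1.48 ± 0.37, edgeR adjusted p = 0.0211, and -0.56 among male libraries).

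Cyp4f14, which inactivates leukotriene B4, was at 7.26, 2.85 and 3.30 CPM in WT and at 0.493, 1.0 and 1.27 CPM in KO_PBS. The groups did not overlap (-2.27 ± 0.55, edgeR adjusted p = 0.0182, and -1.60 among male libraries). Cyp4a31 and Cyp4a32, whose reads overlap with those of Cyp4a10, were at -1.09 ± 0.37 and -1.05 ± 0.37 (edgeR adjusted p = 0.0606 and 0.0692), with -0.62 and -0.52 among male libraries, and all KO_PBS libraries lay below all WT libraries for both. Cyp4f13 also separated by group but by a small amount (-0.45 ± 0.16, edgeR adjusted p = 0.0664).

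On the higher side, Cyp4f18, a leukotriene B4 hydroxylase known from neutrophils, was at 0.0844, 0.200 and 0.241 CPM in WT and at 2.08, 1.34 and 1.58 CPM in KO_PBS. It was a scarce message with the largest rise of any member (3.21 ± 0.64, edgeR adjusted p = 0.00847, and 3.06 among male libraries). Cyp4v3, the mouse counterpart of the human gene mutated in Bietti crystalline dystrophy, was at 7.59, 11.5 and 10.2 CPM in WT and at 30.2, 20.4 and 22.7 CPM in KO_PBS. The groups were well apart (1.32 ± 0.27, edgeR adjusted p = 0.00892, and 1.11 among male libraries). Cyp4f16 was at 18.9, 15.1 and 18.9 CPM in WT and at 38.8, 28.1 and 30.0 CPM in KO_PBS (0.87 ± 0.21, edgeR adjusted p = 0.0198, and 1.12 among male libraries), a call lost without WT 2, WT 3 or KO_PBS 1.

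Cyp4f18 and Cyp2b23 averaged under 1 CPM, the level set for genes to be named with their values, and were added after their values were seen. Markers of macrophages moved with Cyp4f18: 8 of 9 were higher in KO_PBS, with a summed level of 174 to 210 CPM in WT, 804 to 1020 in KO_PBS and 398 to 858 in KO_antimiR21, and none was at 0. Within KO_antimiR21, library 3 had the lowest macrophage sum and the lowest Cyp4f18 value. This was not particular to Cyp4f18. The same library was also the lowest knockout library for Cyp1b1, Cyp2s1, Cyp4f16 and Cyp4v3, the other higher members. The part of such cells in the Cyp4f18 result was not tested. In whole kidney a change in the number of cells of a type and a change in RNA per cell cannot be told apart.

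Among the 14 drug-metabolising members of families 1, 2 and 3, 4 were lower and 2 were higher, with a median of -1.04. The 2 best known targets of the aryl hydrocarbon receptor (AHR) went opposite ways. Cyp1a1 was at 3.63, 2.04 and 2.77 CPM in WT and at 0.247, 0.601 and 0.870 CPM in KO_PBS. Every KO_PBS value was below every WT value (-2.30 ± 0.48, edgeR adjusted p = 0.0105, and -1.82 among male libraries). Cyp1b1, which oxidises estrogens and aromatic pollutants, was at 28, 18.8 and 19.6 CPM in WT and at 93.6, 101 and 82.2 CPM in KO_PBS. The KO_PBS libraries were several times higher and close to one another (2.06 ± 0.30, edgeR adjusted p = 0.00251, and 2.32 among male libraries). The receptor gene Ahr was at 12.6, 11.3 and 13.1 CPM in WT and at 20, 18.6 and 15.6 CPM in KO_PBS (0.55 ± 0.17, edgeR adjusted p = 0.0401), a call lost in 6 of 9 fits that left out 1 library.

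The promoters of these 2 genes, from RefSeq on GRCm38.p6, are shown because they share the core that AHR and its partner ARNT bind. Each runs from 250 bases before the transcription start to 50 after it, 5′ to 3′ on the gene's own strand, and capitals mark the core GCGTG or its reverse complement CACGC. Cyp1a1 lies on the plus strand at chr9:57697363-57697662 and Cyp1b1 on the minus strand at chr17:79715012-79715311.
Cyp1a1: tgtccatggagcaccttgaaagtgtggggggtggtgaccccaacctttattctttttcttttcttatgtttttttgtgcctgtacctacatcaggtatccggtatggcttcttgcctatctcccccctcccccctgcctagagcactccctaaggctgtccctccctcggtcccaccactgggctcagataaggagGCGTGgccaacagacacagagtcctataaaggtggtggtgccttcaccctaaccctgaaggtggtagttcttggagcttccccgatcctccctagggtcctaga
Cyp1b1: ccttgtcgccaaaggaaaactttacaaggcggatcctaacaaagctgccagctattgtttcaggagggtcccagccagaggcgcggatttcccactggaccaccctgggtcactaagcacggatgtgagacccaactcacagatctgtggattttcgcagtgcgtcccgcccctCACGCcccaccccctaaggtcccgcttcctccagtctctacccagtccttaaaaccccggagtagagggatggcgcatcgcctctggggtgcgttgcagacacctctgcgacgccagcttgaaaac
Each window holds 1 match. The core is a short motif, found on either strand in 32.4% of 32851 mouse promoter windows of this length. Of the 37 such windows of the 33 members with a promoter in the table, 11 hold it, from 10 members. Besides the 2 shown, these are Cyp4f14, which was lower in KO_PBS, and Cyp4f16 and Cyp4v3, which were higher. The rest, Cyp20a1, Cyp2j9, Cyp2j13, Cyp2r1 and Cyp46a1, were not called. A match is a run of letters, not evidence of binding in these kidneys.

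In the Cyp2d cluster, whose human relative handles many drugs, Cyp2d12 was at 23.7, 42.5 and 29.2 CPM in WT and at 0.521, 4.44 and 5.93 CPM in KO_PBS. All KO_PBS libraries were well below WT and KO_PBS 1 was lowest (-3.14 ± 0.88, edgeR adjusted p = 0.0314, and -3.53 among male libraries). Cyp2d26 was at 305, 66.0 and 355 CPM in WT and at 17.7, 49.3 and 80.1 CPM in KO_PBS. Here the male WT library fell inside the KO_PBS range, and the log2 fold change of -2.30 ± 0.68 (edgeR adjusted p = 0.0387) was near 0 among male libraries, at -0.41. Leaving out WT 1 or WT 3, KO_PBS 1 or KO_PBS 2, or KO_antimiR21 1 or 3, ended the call. The other 3 members of the cluster, Cyp2d9, Cyp2d11 and Cyp2d22, did not pass the threshold.

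Cyp2s1, an epithelial enzyme that AHR ligands can induce, was at 23.5, 17.2 and 28.5 CPM in WT and at 57.3, 40.0 and 43.0 CPM in KO_PBS. The groups did not overlap (1.02 ± 0.26, edgeR adjusted p = 0.0233, and 1.47 among male libraries), and the call was lost without WT 1, WT 2 or KO_PBS 1. Cyp2b23 was the scarcest lower member, at 0.380, 0.481 and 1.25 CPM in WT and at 0.137, 0.167 and 0.0311 CPM in KO_PBS (-2.61 ± 0.68, edgeR adjusted p = 0.0244, and -2.04 among male libraries). It was called in 5 of the 9 fits that left out 1 library. Cyp2a4 and Cyp2a5, with the shared sequence shown above, were at -1.07 ± 0.73 and -0.97 ± 0.61 (edgeR adjusted p = 0.333 and 0.288). Their KO_PBS values overlapped WT, with 57.1, 254 and 320 CPM for Cyp2a4 against 254, 882 and 186 CPM.

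None of the 5 steroid, sterol and bile acid enzymes passed the threshold. The sterol hydroxylases Cyp27a1 and Cyp39a1 were level across groups, at 34.2 to 46.5 CPM in WT and 35.2 to 45.1 CPM in KO_PBS for Cyp27a1 and at 11.6 to 13.4 and 10.9 to 12.9 CPM for Cyp39a1. Their log2 fold changes were -0.03 ± 0.20 and -0.10 ± 0.19 (edgeR adjusted p = 0.935 and 0.75). Cyp7b1, an oxysterol hydroxylase, had the most negative estimate of any member but a wide error (-3.70 ± 1.56, edgeR adjusted p = 0.119), described with the sex pattern below. The retinoic acid hydroxylases Cyp26a1 and Cyp26b1 were at -0.43 ± 0.53 and -0.79 ± 0.82 (edgeR adjusted p = 0.61 and 0.538).

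Of the remaining 3 members, Cyp2u1, a long-chain fatty acid hydroxylase, was at 4.35, 3.57 and 2.86 CPM in WT and at 1.32, 1.37 and 1.55 CPM in KO_PBS. The WT libraries of both sexes lay above all KO_PBS libraries (-1.34 ± 0.29, edgeR adjusted p = 0.0112, and -1.31 among male libraries). The vitamin D hydroxylase Cyp2r1 and the orphan Cyp20a1 were at -0.25 ± 0.37 and 0.15 ± 0.26 (edgeR adjusted p = 0.683 and 0.737).

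**Figure D3:**
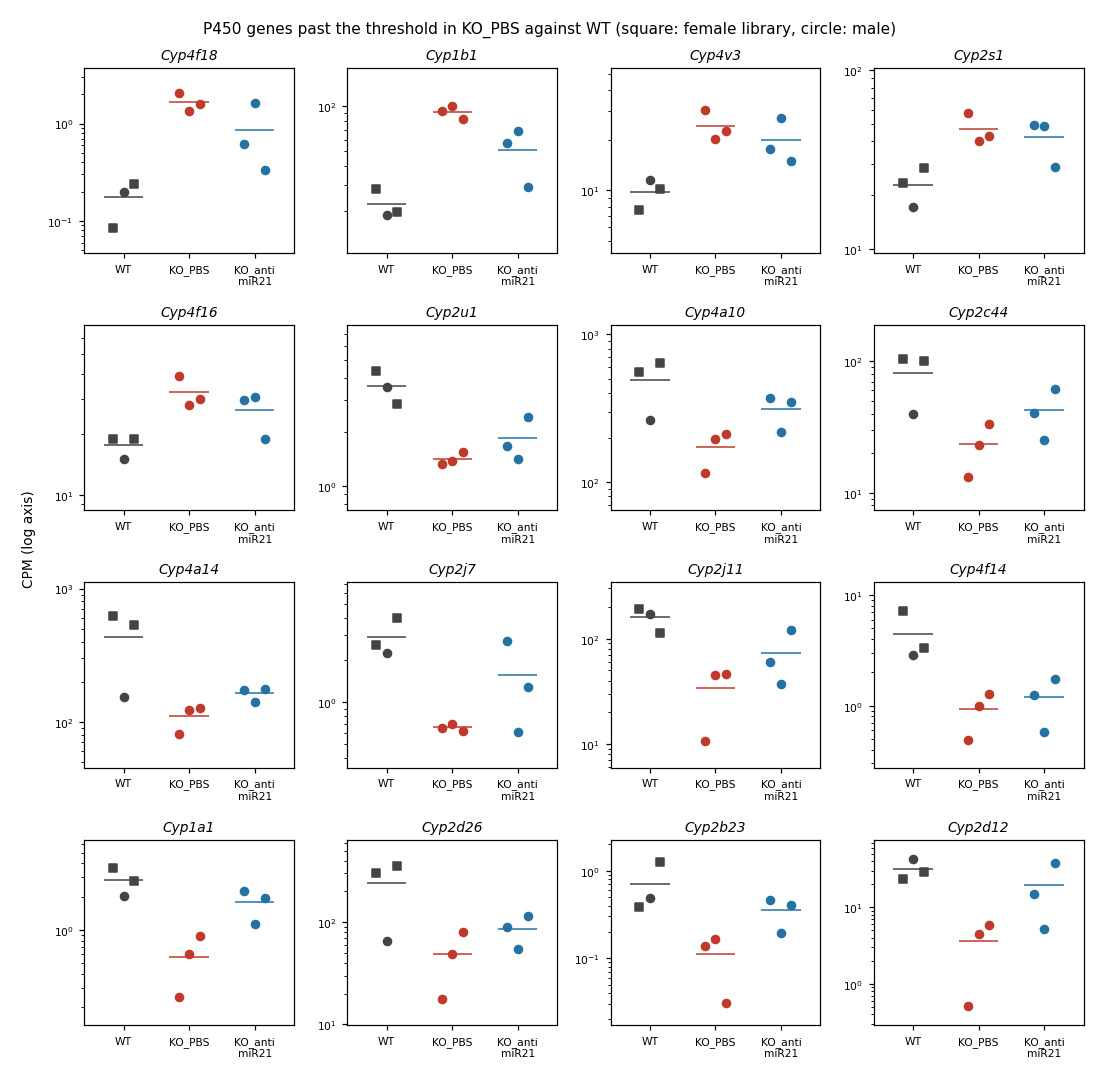
CPM on log axes of the 16 P450 genes past the threshold in KO_PBS against WT, by library, with squares for female and circles for male libraries and a line at each group mean. For Cyp4a10, Cyp2c44, Cyp4a14 and Cyp2d26 the male WT circle lies well below the female squares, whereas for Cyp1b1, Cyp4v3 and Cyp2u1 the WT points lie together.

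WT kidneys of the 2 sexes differed widely in P450 message, as far as 1 male and 2 female libraries can show. The male WT library was at least 2-fold above both females for 9 members, against 3.70% of all genes, and at least 2-fold below both for 6, against 2.42% of all genes. The first set was Cyp2a4, Cyp2d9, Cyp2d11, Cyp2e1, Cyp2f2, Cyp2j13, Cyp4b1, Cyp4f15 and Cyp7b1. The second was Cyp26a1, Cyp2c44, Cyp2d26, Cyp2r1, Cyp4a10 and Cyp4a14. These sets rest on the value of 1 library and are given as a description. In an edgeR fit with a sex term beside the 3 groups, 1 member was higher in male WT and 0 were lower, against 0.0462% and 0.0116% of all genes. At an unadjusted p under 0.05 the counts were 7 and 4 members, against 611 and 452 of 17315 genes.

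The gene that passed was Cyp2j13, at 3.97, 381 and 5.99 CPM in WT 1, 2 and 3. The male value was 63.6 times the higher female value (6.26 ± 0.68 on the log2 scale, edgeR adjusted p = 0.0296, a call lost without WT 1, WT 3, KO_PBS 2 or KO_antimiR21 2). In the male knockouts it was at 69.4, 138 and 195 CPM in KO_PBS and at 110, 174 and 261 CPM in KO_antimiR21. All 6 lay far above the female and below the male WT value. Against the pooled WT group the log2 fold change of KO_PBS was 0.04 ± 1.35. Against male WT alone it was -1.48, an effect size only, and against female WT alone 4.76 ± 0.58 (edgeR adjusted p = 0.00315). The direction therefore turned with the sex of the controls.

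Cyp7b1 was at 4.56, 438 and 9.57 CPM in WT, at 8.25, 20.5 and 6.15 CPM in KO_PBS and at 18.2, 18.4 and 77.9 CPM in KO_antimiR21. Unlike Cyp2j13, the male KO_PBS libraries were near the female WT level. The male WT value was 37.6 times the KO_PBS mean and 11.5 times the KO_antimiR21 mean. The sex term was 5.95 ± 1.07 (edgeR adjusted p = 0.186), and the effect size of KO_PBS against male WT was -5.21. Against female WT alone the value was 0.73 ± 0.78.

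Cyp2d9, a testosterone hydroxylase, was at 12, 377 and 37.6 CPM in WT, at 18.9, 92.0 and 90.8 CPM in KO_PBS and at 146, 78.2 and 282 CPM in KO_antimiR21. Male WT again stood alone at the top (sex term 3.92 ± 1.03, edgeR adjusted p = 0.415). Cyp2e1 was at 150, 1760 and 232 CPM in WT, at 73.9, 458 and 631 CPM in KO_PBS and at 766, 447 and 1410 CPM in KO_antimiR21 (sex term 3.20 ± 1.03, edgeR adjusted p = 0.605). Cyp4b1 was at 100, 549 and 688 CPM in KO_PBS and at 623, 469 and 1700 CPM in KO_antimiR21, against 2470 CPM in male WT. For all 9 genes of the set the KO_PBS estimate was negative against male WT (-5.21 to -1.48). Against female WT it was positive for 7 (0.27 to 4.76) and negative for Cyp2a4 (-0.06) and Cyp2f2 (-0.35). As the set was chosen by the high value of male WT over female WT, these signs are partly built in and are a description.

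For all 9 members of the male-high set, all 6 male knockout libraries lay below male WT. Of the 640 genes of the same pattern over all genes, 250 (39.1%) did so. Since male WT was chosen as the high value, part of that share is built in, and the comparison with 39.1% is a description. None of the 9 was called in KO_PBS against WT. Kap, an abundant proximal tubule gene also highest in male WT, was at 8300, 29900 and 8990 CPM in WT, at 342, 5410 and 3170 CPM in KO_PBS and at 11600, 2350 and 12900 CPM in KO_antimiR21. Members did not all follow that order of libraries: Cyp4f15 was at 1.70, 1.0 and 0.497 CPM in KO_PBS 1, 2 and 3.

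In the male-low set, all 6 knockout libraries lay below both female WT libraries for all 6 members, as they did for 40.6% of the 419 genes of that pattern. Of the 6, 4 were called lower in KO_PBS. As female WT was chosen as the high value and gave 2 of the 3 WT libraries, both counts are partly built in and are a description. For Cyp2c44, Cyp4a10 and Cyp4a14 all 3 KO_PBS libraries also lay below male WT, as for 11.2% of the 419 genes. For Cyp26a1 and Cyp2r1 none did. The lowest p of the set for the sex term was that of Cyp4a14 (-1.90 ± 0.33, edgeR adjusted p = 0.172). Cyp2d22, which missed the 2-fold rule, had a sex term of -1.17 ± 0.32 (edgeR adjusted p = 0.454), and its KO_PBS estimate was -0.90 ± 0.32 over all libraries (edgeR adjusted p = 0.0688) but 0.00 among male libraries. The other 29 members had neither pattern and held 7 of the 11 lower and all 5 higher calls.

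**Figure D4:**
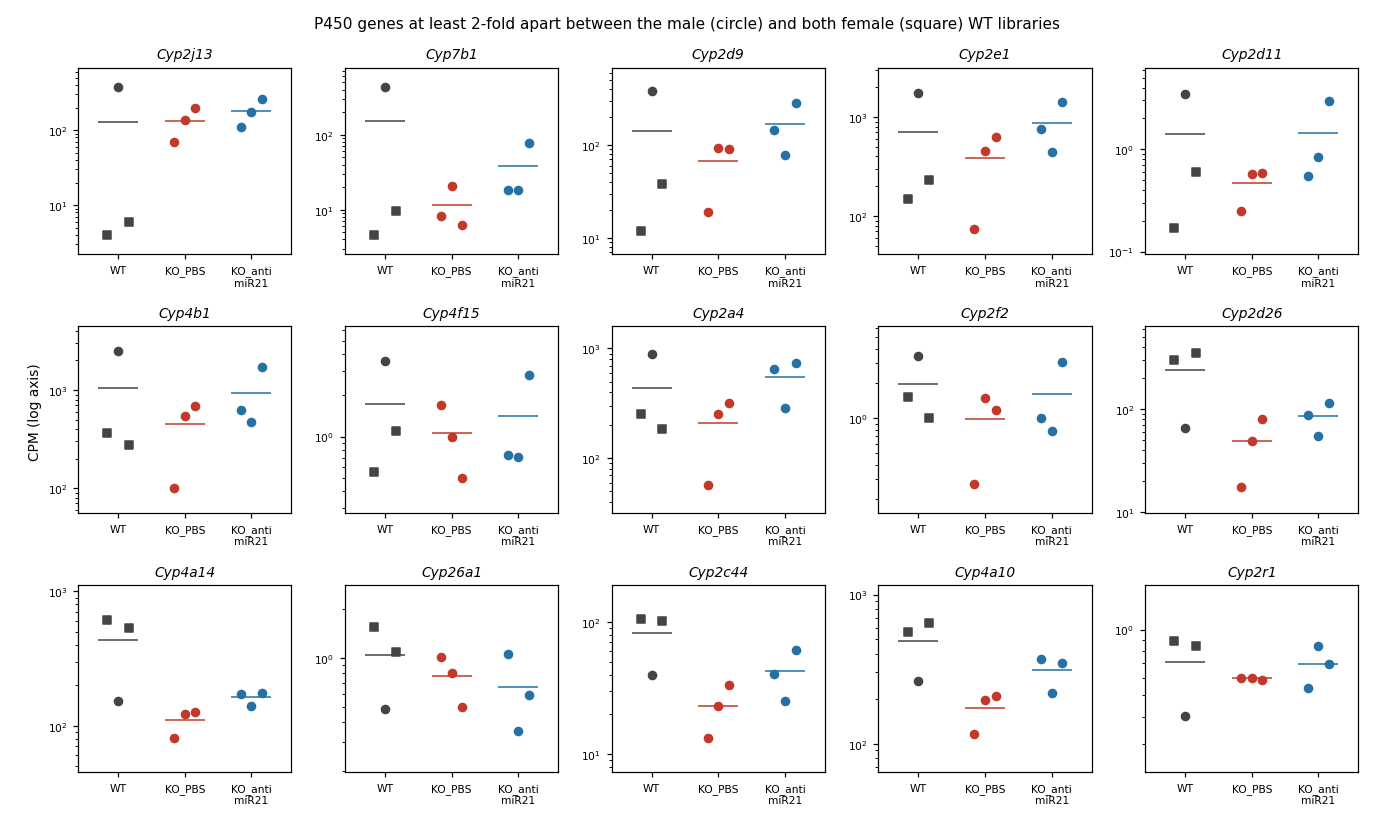
CPM on log axes of the 15 P450 genes at least 2-fold apart between male WT (circle) and both female WT libraries (squares), by library, with a line at each group mean. Among the 9 male-high genes, Cyp2j13 to Cyp2f2, every knockout circle lies below the male WT circle, and for Cyp2j13 the knockouts lie above the female squares.

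The next comparison asked whether the inhibitor changed P450 messages in the knockout. Against KO_PBS, edgeR called 0 members in either direction, as it called 0.0% of all genes in either direction. At an unadjusted p under 0.05 it found 5 members higher and 1 lower, against 618 and 585 of 17315 genes. DESeq2 also called 0 members. The median of the members was 0.47, with 37 above 0, and that of all genes -0.01. With library totals alone these were 0.34, with 34 above 0, and -0.14.

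All 3 KO_antimiR21 libraries lay above all 3 KO_PBS libraries for Cyp1a1, Cyp2b23, Cyp4a10 and Cyp4a14 (3.83% of all genes did so) and below them for Cyp1b1 (6.85% of all genes). The same KO_PBS libraries served the comparison with WT, so the values of the 2 comparisons are not independent. Cyp1a1 was at 2.25, 1.13 and 1.95 CPM under the inhibitor against 0.247, 0.601 and 0.870 CPM (1.63 ± 0.48, unadjusted p = 0.00776, edgeR adjusted p = 0.707). Cyp1b1 was at 56.9, 68.0 and 28.7 CPM against 93.6, 101 and 82.2 CPM, with library 3 near the WT level (-0.85 ± 0.29, unadjusted p = 0.0178, edgeR adjusted p = 0.707).

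Cyp4a10 was at 369, 219 and 347 CPM against 116, 197 and 210 CPM (0.84 ± 0.37, edgeR adjusted p = 0.707). The lowest treated library was just above the highest PBS library. Cyp4a14 was at 173, 140 and 175 CPM against 81.3, 122 and 126 CPM, also with no overlap (0.57 ± 0.43, edgeR adjusted p = 0.807). Cyp2d12 was at 15.0, 5.25 and 38.3 CPM against 0.521, 4.44 and 5.93 CPM, where library 2 overlapped KO_PBS (2.43 ± 0.86, edgeR adjusted p = 0.707). Cyp2j7 was at 2.75, 0.612 and 1.29 CPM against 0.621 to 0.701 CPM, with library 2 below all 3 KO_PBS values (1.22 ± 0.51, edgeR adjusted p = 0.707). Cyp2b23 was at 0.465, 0.193 and 0.404 CPM (1.62 ± 0.70, edgeR adjusted p = 0.707). Within code L5, which leaves 1 KO_PBS library, all 7 genes named here kept their signs, with Cyp1a1 at 1.02 and Cyp1b1 at -0.68.

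Single libraries stood apart among the knockouts. Among the 6 knockout libraries, KO_PBS 1 was lowest for 22 of the 44 members, against 20.3% of all genes, and KO_antimiR21 3 was highest for 22, against 21.1% of all genes. The summed CPM of 20 proximal tubule markers followed a like order, with 3260, 12800 and 12000 in KO_PBS 1, 2 and 3 and 21700, 9200 and 26000 in KO_antimiR21 1, 2 and 3. Of these sums, Kap alone gave 342, 5410 and 3170 in KO_PBS and 11600, 2350 and 12900 in KO_antimiR21. The part of these markers in the P450 values was not tested.

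Against WT, KO_antimiR21 had 1 member higher, Cyp1b1, and 0 lower, where 6.72% of all genes were called higher and 0.427% lower. At an unadjusted p under 0.05 edgeR found 6 of the 44 members higher and 3 lower, against 2324 and 1174 of 17315 genes. Those shares are near each other. Cyp1b1, at 51.2 ± 20.3 CPM against 22.1 ± 5.07 in WT (SD, n = 3), had a log2 fold change of 1.21 ± 0.30 (edgeR adjusted p = 0.0433). This call was lost without any one of 8 of the 9 libraries. Just short of the threshold were Cyp4v3 (1.04 ± 0.27, edgeR adjusted p = 0.0508), Cyp4f14 (-1.90 ± 0.54, 0.0753), Cyp4f18 (2.26 ± 0.64, 0.0757), Cyp2u1 (-0.97 ± 0.28, 0.0838) and Cyp2s1 (0.88 ± 0.26, 0.0869), with the edgeR adjusted p second in each. Among male libraries Cyp1b1 was at 1.48, Cyp4v3 at 0.83, Cyp4f14 at -1.22, Cyp4f18 at 2.11, Cyp2u1 at -0.93 and Cyp2s1 at 1.34. All 3 KO_antimiR21 libraries lay above all WT libraries for 6 members, against 14.6% of all genes, and below them for Cyp2u1 and Cyp4f14, against 9.83% of all genes. The 6 were Cyp1b1, Cyp2s1, Cyp3a13, Cyp4f16, Cyp4f18 and Cyp4v3. The median of the members was -0.27 with all libraries and 0.00 among male libraries.

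Genes that serve the P450 enzymes were compared by lists chosen with earlier results known. Of 8 microsomal electron partners tested, 3 were lower in KO_PBS and 0 higher (median -0.54). Por, the oxidoreductase that feeds all microsomal P450 enzymes, was at 379, 322 and 320 CPM in WT and at 99.2, 152 and 194 CPM in KO_PBS. Every KO_PBS library was below every WT library, and the WT values of both sexes were alike (-1.20 ± 0.26, edgeR adjusted p = 0.0116, and -1.10 among male libraries). Under the inhibitor Por was at 205, 165 and 259 CPM (0.50 ± 0.25 against KO_PBS, edgeR adjusted p = 0.713). The heme-binding partner Pgrmc1 (-0.88 ± 0.19, edgeR adjusted p = 0.0111) and cytochrome b5 type Cyb5b (-0.84 ± 0.24, 0.0347) were the other 2, with -0.47 and -0.89 among male libraries, and the Cyb5b call was lost in 5 of 9 fits that left out a library. Both mitochondrial partners were lower, ferredoxin Fdx1 at -1.07 ± 0.23 and its reductase Fdxr at -0.91 ± 0.25 (edgeR adjusted p = 0.0116 and 0.029). Among male libraries these were -1.13 and -0.42, and the Fdxr call was lost without WT 3, KO_PBS 1 or KO_PBS 2.

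Of 27 regulators of P450 genes, 4 were lower and 1, Ahr, was higher (median -0.37). Nr0b2, the bile acid induced repressor SHP, was at 2.65 to 3.29 CPM in WT and at 0.548 to 0.801 CPM in KO_PBS (-2.15 ± 0.30, edgeR adjusted p = 0.00215). Ghr, the receptor for growth hormone, whose secretion pattern sets many sex differences of liver P450 genes, was at 498 to 683 CPM in WT and at 168 to 318 CPM in KO_PBS (-1.28 ± 0.29, edgeR adjusted p = 0.0146). Of 11 heme genes 3 were lower and 1, the heme-degrading Hmox1, was higher (1.78 ± 0.27, edgeR adjusted p = 0.00266; median of the list -0.43).

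Of 31 conjugating and other detoxifying enzymes, 7 were lower and 0 higher (median -0.85). Among them were the carboxylesterase Ces3 (-2.89, edgeR adjusted p = 0.0162) and the quinone reductase Nqo1 (-1.01, 0.015). Of 12 other eicosanoid enzymes, 2 were lower, the lipoxygenase Alox12 and the epoxide hydrolase Ephx1 (-0.80 and -0.91, edgeR adjusted p = 0.031 and 0.046), and 0 were higher (median -0.25). The Ephx1 call was lost in 8 and the Alox12 call in 4 of 9 fits that left out a library. Against KO_PBS, KO_antimiR21 had 0 calls in every one of these lists by edgeR. Among male libraries, with 1 WT library, only effect sizes are read for KO_PBS against WT. The list medians there were -0.37 for microsomal partners, -0.77 for mitochondrial partners, -0.14 for regulators and -0.41 for heme genes. For the eicosanoid and conjugating lists they were -0.27 and -0.98.

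Several markers of tubule segments were also lower in KO_PBS. In KO_PBS, 7 of 20 proximal tubule markers were lower and 1 higher, with a median of -1.24, and -1.22 among male libraries. Their summed level was 22900 to 45600 CPM in WT, 3260 to 12800 CPM in KO_PBS and 9200 to 26000 CPM in KO_antimiR21, and none was at 0. Kap alone gave 29900 of the 45600 CPM in WT 2 and 12900 of the 26000 CPM in KO_antimiR21 3. The higher marker was Slc13a1 (1.24 ± 0.39, edgeR adjusted p = 0.047), a call lost without WT 2 among others. Slc5a1 and Slc7a7 were near 0 (-0.08 ± 0.30 and 0.09 ± 0.33). Miox, an inositol oxygenase of this segment, was at -2.92 ± 0.60 (edgeR adjusted p = 0.00981) and Slc34a1 at -1.60 (0.039), a call lost in 6 of 9 fits that left out a library. Of 8 thick limb and distal markers 5 were lower and 0 higher, with a median of -1.36, and -0.65 among male libraries. Their part in the P450 result was not tested. Adrenal tissue can cling to a kidney: 4 of 6 adrenal cortex markers were detected well enough to be tested, their sum was 29.9 to 39.1 CPM over all libraries, and 1 of the 4, the lipoprotein receptor Scarb1, was higher (0.72 ± 0.15, edgeR adjusted p = 0.0109).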

How the data were processed

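Kidney mRNA was sequenced after TruSeq v2 preparation with an input of 150 ng total RNA, per the labels' protocols. The authors deposited 1 table of expected counts per library (22637 symbols), and Bowtie, RSEM and mm9 are named in the submitters' processing notes, with versions and annotation not given in the sources used here. The authors also deposited a log2 matrix, which equalled log2 CPM plus 1 constant per library to within 5.1e-14 when checked, and limma is named in the same notes. Strand handling is not given, so antisense and overlapping genes were not separated.

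After rounding of the expected counts, filterByExpr left 17315 genes. All 9 libraries entered 1 edgeR fit with 3 group means, TMM factors (0.8944 to 1.149) and the quasi-likelihood F test, with two-sided p-values adjusted by Benjamini-Hochberg over all genes in each comparison and a threshold of 0.05. Errors after ± are SE for log2 fold changes and SD otherwise. The edgeR step was first run on simulated counts with the same spread for every gene. That simulation held no sex effect and no outlying library, so it does not cover such features of these libraries. Libraries with at least 10 summed CPM of Y-linked genes were called male. Replicates were not copies, with a chi-square per gene of 29.5 to 132.1 between libraries of a group. The labels' replicate numbers did not pair samples: deviations of same-numbered libraries correlated at -0.48 to 0.5.

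The members and the 12 gene lists were chosen with earlier results of these data known. Values in every library are given for members past the threshold in KO_PBS against WT with a mean of at least 1 CPM, the 6 with the lowest p in each other comparison and for the sex term, and the 6 with the highest WT mean; from each list the 3 with the lowest p were taken, and the text gives part of these. Alternatives were DESeq2, RLE size factors, library totals, no filter, limma on the deposited matrix, terms for sex, library code or replicate number, male libraries only, each library left out, and, added after the data were seen, libraries of 1 code. Transcript comparisons used GENCODE vM21 and gene order and promoters RefSeq tables, all on GRCm38. That build differs from mm9, so only sequences, order and the coordinates of the printed RefSeq windows were used. Fits used edgeR 4.0.16, DESeq2 1.42.0 and limma 3.58.1 under R 4.3.3. Tables used numpy 2.4.6 with pandas 2.3.3, and plots matplotlib 3.10.9, under Python 3.11.15.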

Additional observations from a re-analysis of the deposited data

How the results depend on the processing

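For KO_PBS against WT, 16 members were called. The count was 0 with sex as a term. It ran from 6 to 17 when each library was left out in turn. Those fits gave 6 without KO_PBS 1, 8 without KO_PBS 2, 9 without WT 3 and 17 without KO_PBS 3. The count was 13 within code L4, 20 by DESeq2 and 14 with the replicate block. The calls over all genes in these settings were not compared. From the fit of the male libraries, where 1 WT library remains, only effect sizes are read, with a median of -0.68 for the members. For KO_antimiR21 against WT the 1 call became 8 by DESeq2, 2 with library size only and 2 with no filter on low counts. It became 0 with sex as a term, with library code as a term and with the replicate block. It ran from 0 to 6 over the libraries left out, with 6 without KO_antimiR21 3. For KO_antimiR21 against KO_PBS the count was 0 in each setting run. The 1 call of the sex term became 0 in 4 fits that left out a library (range 0 to 1). Of the genes on the lists, 46 were called in KO_PBS and 10 in KO_antimiR21 against WT. The replicate block used numbers that do not pair the samples. The causes were not tested. No called value of a named member changed sign in any setting run: in KO_PBS against WT, 224 values kept their side of the threshold and 80 fell short of it. Sex and genotype cannot be told apart beyond what 1 male WT library shows, and members under 1 CPM rest on few counts a library.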

Other observations

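Of the 36 P450 genes under the minimum of 90 summed counts, 13 were highest in KO_PBS 2. That number includes Cyp2b10, which had 2.0 counts both there and in KO_antimiR21 3. It was not compared with all genes, and several of the 13 rest on very few counts, such as Cyp7a1 with 1.0 summed. Among these, Cyp3a11, a major P450 of mouse liver, had 31 counts in KO_PBS 2 and 0 to 4 in each other library. Cyp2c50 had 12 counts and Cyp2c29 11 counts there, with 0 to 1 elsewhere, and Cyp1a2 had 6 and Cyp3a25 8. The liver protein gene Alb stood at 37.4 CPM in KO_PBS 2, at 0.0822 and 5.13 CPM in KO_PBS 1 and 3 and at 6.01 to 15.2 CPM in WT. Alb and Apoa1 were highest in KO_PBS 2, and the other 4 of 6 liver markers were not: Ttr, Apoa2, Serpina1a and Fgb were highest in WT 2, WT 1, KO_antimiR21 3 and KO_PBS 3. Of the 6, 1, the fibrinogen chain Fgb, was higher in KO_PBS against WT by edgeR (4.60, adjusted p = 0.00135), with 3.51, 6.81 and 7.77 CPM in the 3 libraries, and 0 were lower. The part of liver RNA in these counts was not tested.

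Cyp4a12a, a fatty acid hydroxylase outside the member rule by the form of its symbol, shared the male-high pattern, with 551 CPM in male WT against 21.5 and 28.2 CPM in female WT. It was at 47.4 to 67.1 CPM in KO_PBS and at 57.4, 68.6 and 209 CPM in KO_antimiR21. Cyp51, a cholesterol synthesis enzyme also outside the rule, was at 292 to 329 CPM in the WT libraries of both sexes, at 26.9 to 81.3 CPM in KO_PBS and at 45.2 to 159 CPM in KO_antimiR21. These values were looked up after the member results were known.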
